A study of Mus musculus with 37 samples.

Results

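Collagen genes were taken as every gene of the deposited RNA table whose symbol was Col, a number, the letter a and a number. There were 42 of them among 29955 gene symbols. They were read as 6 fibrillar genes (types I, III and V), 8 basement membrane genes (types IV, XV and XVIII) and 28 genes of other types. Collagens are extracellular proteins built of 3 intertwined chains. Fibrillar types form the tensile fibers of connective tissue, and type IV forms the sheet-like network of basement membranes. The genes of other types are mixed. Types II, XI, XXIV and XXVII also form fibrils but were not in the fibrillar class used here. Others form networks, link, decorate or anchor these structures or span the cell membrane. In brain, fibrillar collagens are known mainly from the meninges and vessel walls, and basement membrane collagens from the sheath around vessels and at the pial surface.

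The libraries came from total RNA of cerebellum of C57BL/6 mice, extracted with Trizol and sequenced on an Illumina HiSeq instrument. The KO group was labelled Mll4 BSKO, a brain-specific deletion of the histone H3 lysine methyltransferase MLL4, and the WT group was labelled Mll4 f/f, mice whose floxed allele had not been deleted. Both groups therefore carried the floxed allele, and the Cre line behind the deletion was not given in the sources used here. The mice of 3 KO and 3 WT libraries were 1 month old, and 1 KO and 1 WT library were from mice aged 4 months. Separate animals are not named for the libraries, and p-values here reflect only how far these libraries spread, possibly for technical reasons. Values are FPKM (fragments per kilobase of transcript, scaled to the mapped fragments of each library), and values of a group are given in the order of its replicate numbers.

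Mll2, an older symbol for the gene that encodes MLL4 and read here as the targeted gene, had 12.7, 13.6 and 23.5 FPKM in the KO libraries, against 18.2, 19.9 and 22.3 FPKM in the WT libraries at 1 month. At 4 months it had 16.6 FPKM in KO, against 46.6 FPKM in WT. The library labelled KO replicate 3 lay above every WT library at 1 month, against its label, and whether the FPKM values covered the deleted part of the gene was not known. Over 7315 genes averaging 10 FPKM or more, its median absolute log2 distance was 0.25 to both other KO libraries, and 0.16 and 0.15 to WT replicates 1 and 2. Replicates 1 and 2 of a genotype lay only 0.08 apart. Absolute depth is unknown for FPKM, and relative depth read from the lowest values ran between 0.73 and 1.2 times that of WT replicate 1. The granule neuron markers Gabra6 and Cbln1, which define the main cerebellar neuron, were at 219 and 267 FPKM in WT replicate 1. In the KO libraries at 1 month Gabra6 had 29.5, 28.5 and 145 FPKM and Cbln1 had 44.1, 41.3 and 163 FPKM. At 4 months Gabra6 had 0.118 FPKM in KO, against 134 FPKM in WT, and Cbln1 had 6.66 FPKM in KO, against 109 FPKM in WT.

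Summed over all members, collagen mRNA came to 165, 181 and 214 FPKM in the KO libraries, against 132, 137 and 216 FPKM in the WT libraries at 1 month. Over all 8 libraries, the gene with the highest mean was Col1a2 at 16.4 FPKM, then Col18a1 at 15.6, Col4a1 at 13.9, Col9a3 at 12.1, Col4a2 at 12, Col1a1 at 10.1 and Col3a1 at 9.34 FPKM. The ranges of neighboring genes in this order overlapped. Of the 42 genes, 12 had a mean under 1 FPKM over the 8 libraries. The 8 genes not described further stayed below 1 FPKM on average in each of the 4 groups, with highest values in any library of 0.586 FPKM for Col4a3, 0.51 for Col4a4, 0.752 for Col6a4, 0.252 for Col6a6, 1.1 for Col13a1, 1.05 for Col14a1, 0.295 for Col22a1 and 0.392 for Col28a1.

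**Figure D1:**
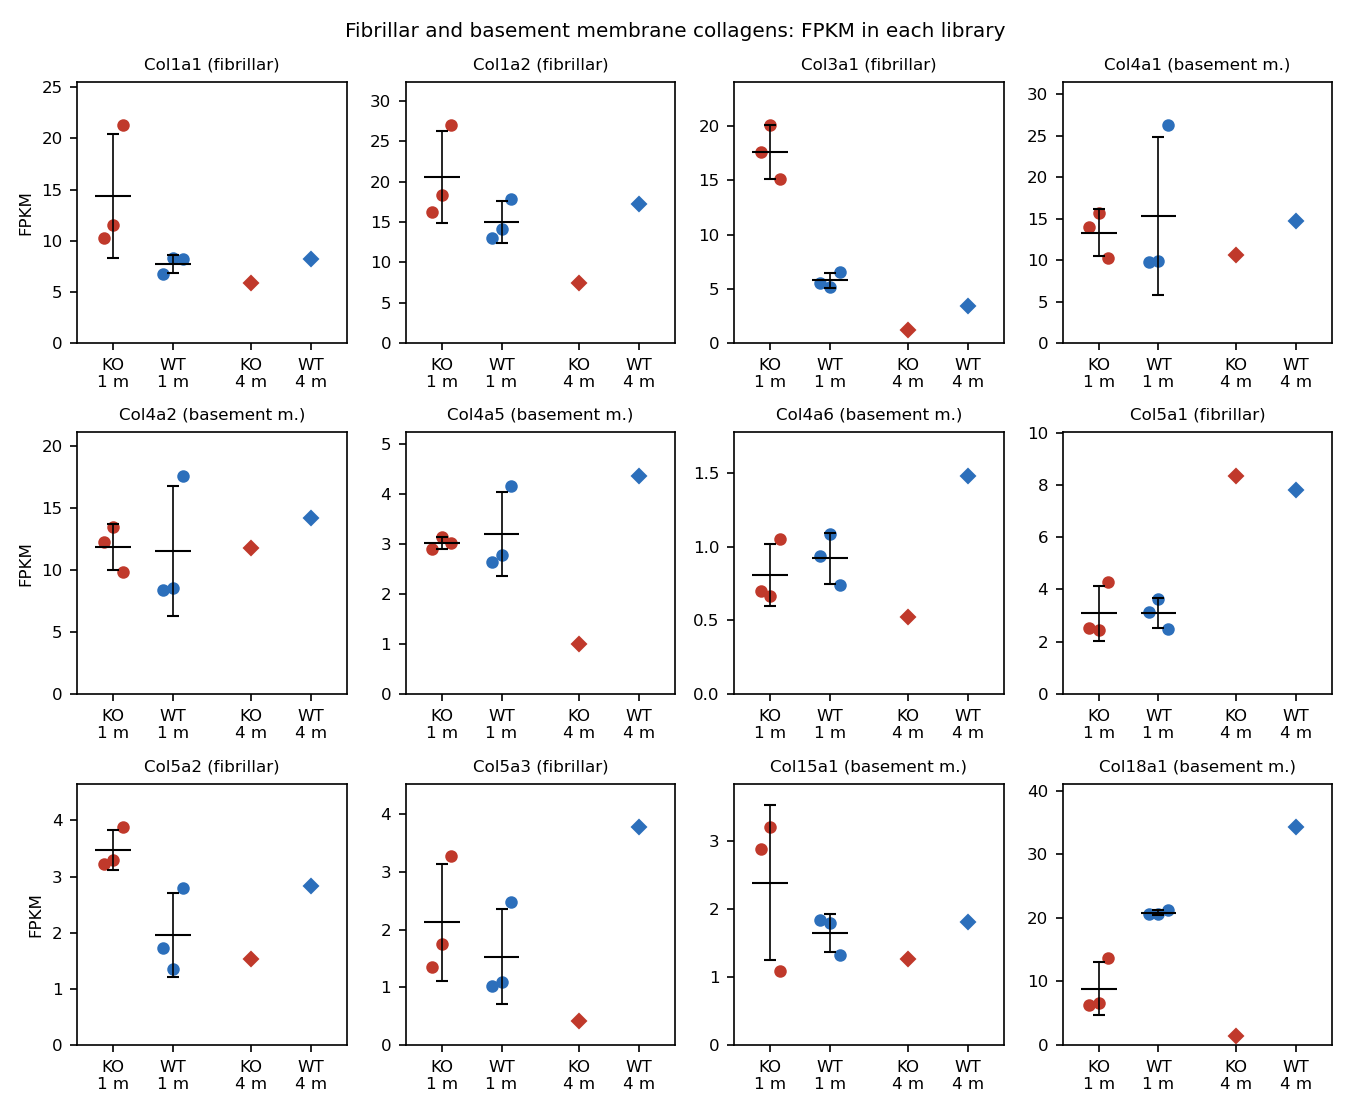
FPKM (vertical axes, from 0) of the 12 fibrillar and basement membrane genes that are named, in KO and WT libraries at 1 month (circles in replicate order, with the mean and SD, n = 3 each) and at 4 months (diamonds, 1 library each). Col3a1 lies at 15.1 to 20.1 FPKM in KO at 1 month, above WT at 5.17 to 6.56 FPKM, and Col18a1 lies at 6.3 to 13.7 FPKM in KO, below WT at 20.6 to 21.3 FPKM.

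At 1 month, 30 of the 42 genes averaged 1 FPKM or more over the 6 libraries and were tested with all other such genes (limma on log2(FPKM + 1), Benjamini-Hochberg adjustment over 14847 genes). Fold changes on this scale understate the change of low genes. A single collagen gene, Col3a1, passed an adjusted p of 0.05, and it was higher in KO. The share of all tested genes that passed was 0.0606%, or 9 genes, with 0.0471% higher and 0.0135% lower. At an adjusted p of 10%, where 18.4% of all genes passed, 9 of the 30 collagen genes did: Col3a1, Col16a1, Col6a3, Col11a1, Col24a1 and Col5a2 were higher in KO and Col18a1, Col2a1 and Col19a1 were lower. The matching share of all genes was 8.59% for higher and 9.77% for lower. At an unadjusted p under 0.05, 13 of the 30 did, against 31.8% of all genes. The KO and WT libraries did not overlap for 12 of the 30 collagen genes (8 higher and 4 lower in KO), against 35.8% of all genes tested. By direction, 26.7% of the collagen genes were higher without overlap, against 15.2% of all genes, and 13.3% were lower, against 20.5% of all genes. The median difference, KO minus WT, was 0.51 (log2) over the 6 fibrillar genes, with 5 positive, −0.04 over 5 basement membrane genes and 0.17 over 19 genes of other types, against −0.04 over all genes. Without the library labelled KO replicate 3 these class medians were 0.32, 0.11 and −0.16. The sign of the basement membrane median also turned under other scalings of the libraries, at 0.01 after quantile normalization and 0.03 after a shift to a common median.

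**Figure D2:**
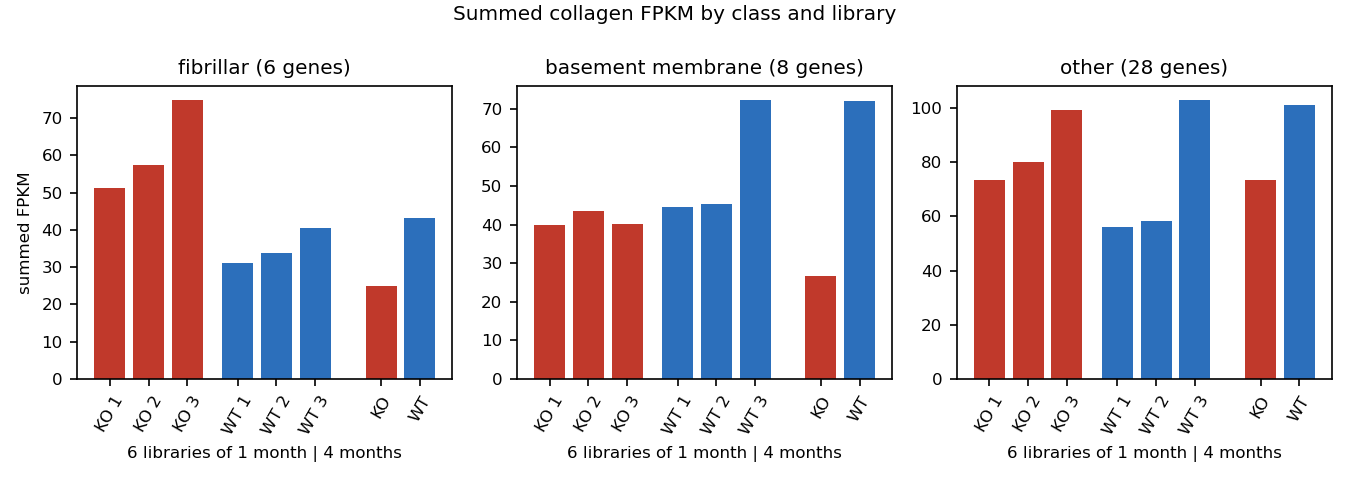
Summed FPKM (vertical axes, from 0) of the fibrillar, basement membrane and other collagen genes, 1 bar per library, KO in red and WT in blue, with the 6 libraries of 1 month at the left and those of 4 months at the right. The bar marked KO 3 is the library labelled KO replicate 3. All 3 KO bars at 1 month are above WT for the fibrillar genes and below WT for the basement membrane genes. The groups overlap once Col3a1 is left out of the fibrillar sum, or Col18a1 out of the basement membrane sum. At 4 months KO is below WT in each class.

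The fibrillar genes had a higher summed level in every KO library than in any WT library at 1 month. The sum was 51.2, 57.4 and 74.9 FPKM in the KO libraries, against 31.2, 33.7 and 40.5 FPKM in the WT libraries, or 61.2 ± 12.3 against 35.1 ± 4.78 FPKM (SD, n = 3 each). With Col3a1 left out of the sum the groups overlapped, as KO replicate 1 then lay below WT replicate 3. Taken singly, Col1a2, Col5a1 and Col5a3 overlapped between the groups. Col3a1, which encodes the single chain of type III collagen of distensible tissues and vessel walls, had 17.6, 20.1 and 15.1 FPKM in the KO libraries, against 5.57, 5.17 and 6.56 FPKM in the WT libraries. All 3 KO libraries lay above all 3 WT libraries, and the means were 17.6 ± 2.49 FPKM in KO and 5.76 ± 0.715 FPKM in WT (SD, n = 3 each), a 3.05-fold ratio. Col3a1 rose by 1.46 on the log2 scale (SE 0.14, limma adjusted p = 0.044). The call held without the library labelled KO replicate 3 (1.56, adjusted p = 0.000835) and was lost without any one of replicates 1 and 2 of either genotype, where the adjusted p lay between 0.147 and 0.195. Whether the close replicates 1 and 2 of a genotype shared a source was not given. Averaged and counted as 1 library per genotype, they left Col3a1 at 1.36 with an adjusted p of 0.508, an alternative chosen after seeing the data.

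The promoter window of Col3a1 is shown because Col3a1 was the one collagen gene past the threshold. It spans 250 bases before to 50 bases after the annotated start, at chr1:45311288-45311587 on the plus strand of GRCm38.p6 (RefSeq), a later build than the mm9 named in the submitters' processing notes. Capitals mark the single match, on either strand, to the motifs searched: the TATA box letters TATAAA, the CCAAT box letters CCAAT and the GC box letters GGGCGG.
Col3a1: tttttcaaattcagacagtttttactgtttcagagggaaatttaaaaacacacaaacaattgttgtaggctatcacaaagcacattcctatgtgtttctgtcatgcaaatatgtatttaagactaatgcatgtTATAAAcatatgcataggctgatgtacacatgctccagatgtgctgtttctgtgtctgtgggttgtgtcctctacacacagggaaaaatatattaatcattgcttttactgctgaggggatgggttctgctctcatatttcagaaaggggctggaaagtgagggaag
The match begins 117 bases before the start. Of 37 windows found for 34 of the 42 collagen genes, 5 held TATAAA, 13 held CCAAT and 22 held GGGCGG, against 13.6%, 37.4% and 35.7% of all 32851 windows of this length.

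The other fibrillar genes stayed short of the 5% threshold. Col1a1 and Col1a2 encode the 2 chains of type I collagen, the main fibril of skin, bone and meninges. Col1a1 had 10.3, 11.5 and 21.3 FPKM in the KO libraries, against 6.75, 8.32 and 8.23 FPKM in the WT libraries (log2 difference 0.75, SE 0.26, limma adjusted p = 0.109). The groups did not overlap, and the library labelled KO replicate 3 stood highest. Col1a2 had 16.2, 18.4 and 27 FPKM in the KO libraries, against 13.0, 14.1 and 17.9 FPKM in the WT libraries (0.41, SE 0.2, adjusted p = 0.217), and the groups overlapped. The ratio of Col1a1 to Col1a2 was 0.639, 0.625 and 0.79 in the KO libraries, against 0.518, 0.589 and 0.46 in the WT libraries.

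Type V chains co-assemble with type I and limit fibril width. Col5a2 had 3.23, 3.29 and 3.88 FPKM in the KO libraries, against 1.72, 1.35 and 2.8 FPKM in the WT libraries, without overlap (0.62, SE 0.2, limma adjusted p = 0.0984). Col5a1, its partner chain, had 2.52, 2.45 and 4.28 FPKM in the KO libraries, against 3.15, 3.63 and 2.5 FPKM in the WT libraries. The interval for its difference ran from −0.52 to 0.47 (95%, log2). Col5a3 had 1.36, 1.75 and 3.27 FPKM in the KO libraries, against 1.02, 1.1 and 2.48 FPKM in the WT libraries, with overlap. In both genotypes the library numbered 3 was the highest.

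Markers of the cells that make these collagens, and of microglia, were summed beside the fibrillar genes. Of 20 meningeal and fibroblast markers other than collagens, all in the table, none was at 0 in all libraries and 3 (Foxc2, Foxd1 and Dpt) had a mean under 1 FPKM. Their sum was 151 to 199 FPKM in the KO libraries, against 120 to 148 FPKM in the WT libraries. Of the 17 tested, 15 had a positive difference, with a median of 0.42 (log2), from −0.2 for Igf2 to 1.18 for Dcn. At an adjusted p of 10%, 4 were higher (Dcn, Ogn, Igfbp2 and Bgn), where 8.59% of all genes were. The most abundant of the 20 markers, Mgp, had 22.9, 24.9 and 59.1 FPKM in the KO libraries, against 26.7, 22.3 and 76.0 FPKM in the WT libraries. Without Mgp the sum was 127 to 140 FPKM in KO, against 71.5 to 99.5 FPKM in WT. The 14 mural cell markers summed to 113 to 127 FPKM in the KO libraries, against 98.4 to 118 FPKM in the WT libraries, and the 14 endothelial markers to 189 to 208 FPKM in KO, against 166 to 175 FPKM in WT. The mural sums overlapped between the genotypes. Microglial sums did not: 9 markers, led by C1qa, summed to 159, 150 and 207 FPKM in the KO libraries, against 81.1, 76.3 and 58.5 FPKM in the WT libraries. All 9 had a positive difference, 8 were higher at an adjusted p of 10%, and Csf1r passed 0.05 (limma adjusted p = 0.044). Of all genes, 8.59% were higher at 10% and 0.0471% at 0.05. In whole tissue, fewer cells of a type and less RNA per cell cannot be told apart, and the part of these cells in the collagen differences was not tested.

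**Figure D3:**
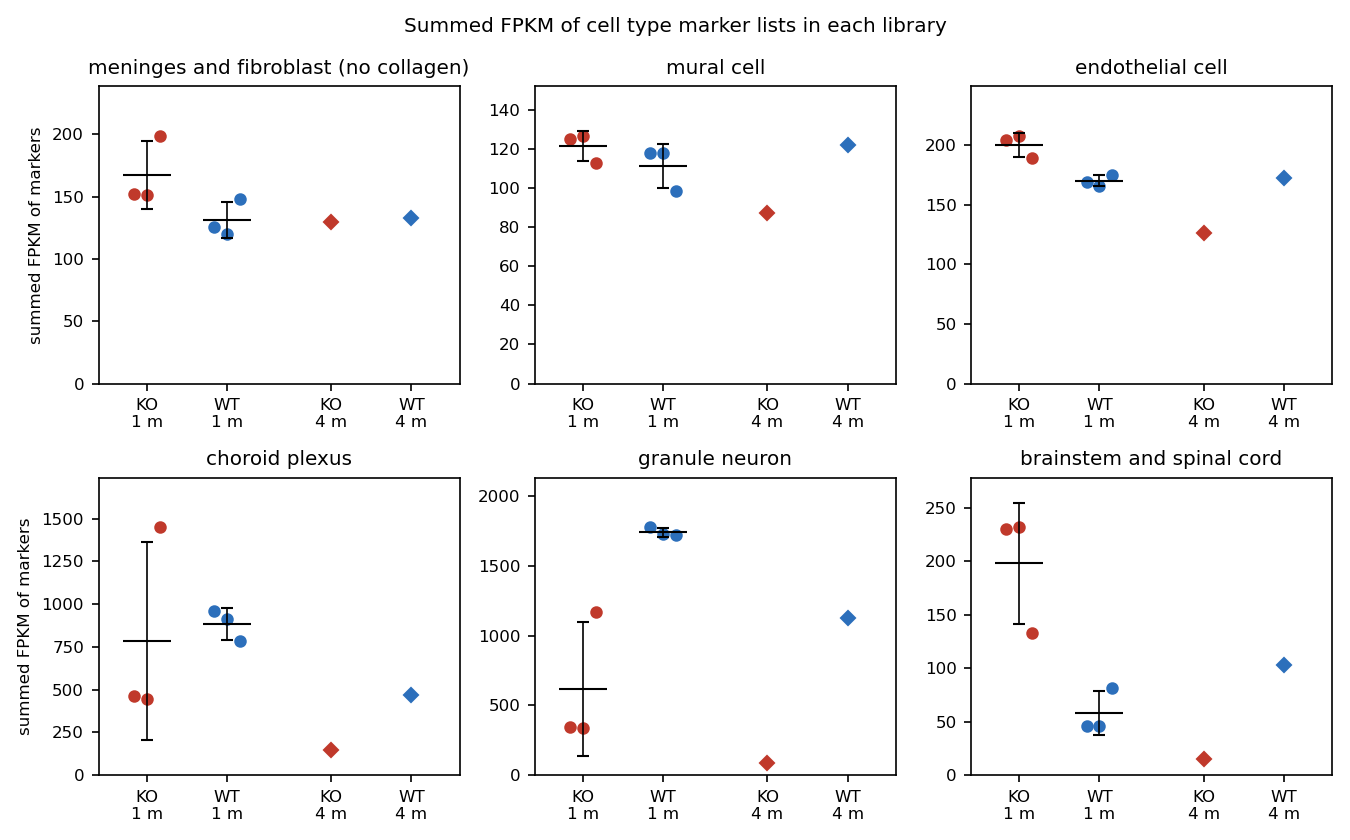
Summed FPKM (vertical axes, from 0) of the markers of 6 cell types or regions in KO and WT libraries at 1 month (circles in replicate order, with the mean and SD, n = 3 each) and at 4 months (diamonds, 1 library each). Granule neuron markers are at 338 to 1170 FPKM in KO at 1 month, below WT at 1720 to 1780 FPKM, while the meningeal markers are at 151 to 199 FPKM in KO and 120 to 148 FPKM in WT.

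Among the basement membrane genes, Col18a1 stood lowest in KO relative to WT. It encodes type XVIII collagen, a heparan sulfate proteoglycan whose end fragment is endostatin. Col18a1 had 6.3, 6.67 and 13.7 FPKM in the KO libraries, against 20.6, 20.6 and 21.3 FPKM in the WT libraries. All KO libraries lay below all WT libraries, with the library labelled KO replicate 3 between its group and WT. The means were 8.89 ± 4.19 FPKM in KO and 20.8 ± 0.412 FPKM in WT (SD, n = 3 each), a ratio of 0.427. The log2 difference was −1.22 (SE 0.26), and its limma adjusted p of 0.0663 missed the threshold. Without the library labelled KO replicate 3 it fell by 1.55 on the log2 scale (adjusted p = 0.000238).

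The sums of the granule and Purkinje cell markers were, like Col18a1, lowest in KO replicates 1 and 2 and below WT in all KO libraries. The 12 granule neuron markers summed to 343, 338 and 1170 FPKM in the KO libraries, against 1780, 1730 and 1720 FPKM in the WT libraries. The 9 Purkinje cell markers found summed to 758, 680 and 1660 FPKM in KO, against 2770, 2550 and 2190 FPKM in WT. The 11 choroid plexus markers, led by Ttr, summed to 460, 442 and 1450 FPKM in KO, against 958, 911 and 782 FPKM in WT, and were highest in the library labelled KO replicate 3. None of these markers was at 0 in all libraries or had a mean under 1 FPKM. The part of these cells in the level of Col18a1 was not tested.

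RefSeq gives Col18a1 a pair of windows, shown because its difference was the widest among the collagen genes at 4 months; they lie on the minus strand of GRCm38.p6 at chr10:77166481-77166780 and chr10:77113656-77113955. Capitals mark the letters searched for Col3a1, read on either strand.
Col18a1, upstream start: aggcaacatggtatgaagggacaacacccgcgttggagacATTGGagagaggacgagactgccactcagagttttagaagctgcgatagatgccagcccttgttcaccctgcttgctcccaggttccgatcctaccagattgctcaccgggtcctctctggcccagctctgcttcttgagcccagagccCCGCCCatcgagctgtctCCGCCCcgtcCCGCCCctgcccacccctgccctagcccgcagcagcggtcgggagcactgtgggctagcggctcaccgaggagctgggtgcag
Col18a1, downstream start: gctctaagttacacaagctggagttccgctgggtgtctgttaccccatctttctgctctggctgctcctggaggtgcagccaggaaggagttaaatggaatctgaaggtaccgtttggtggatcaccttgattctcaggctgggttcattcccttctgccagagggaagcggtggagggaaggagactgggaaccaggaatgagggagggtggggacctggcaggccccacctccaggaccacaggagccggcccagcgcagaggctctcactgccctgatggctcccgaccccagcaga
The upstream window held CCAAT 210 bases before the start and GGGCGG at 61, 43 and 33 bases before it, all on the opposite strand. The downstream window held none of the motifs. The FPKM values are per gene and do not say which start was used.

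Col4a1 and Col4a2 encode the chains of the ubiquitous type IV network and lie head to head. Their windows are shown because they share 78 bases, chr8:11312777-11312854 of GRCm38.p6, which are in capitals. The annotated starts, 11312826 for Col4a1 on the minus strand and 11312805 for Col4a2 on the plus strand, lie 21 bases apart. The windows are chr8:11312777-11313076 and chr8:11312555-11312854.
Col4a1: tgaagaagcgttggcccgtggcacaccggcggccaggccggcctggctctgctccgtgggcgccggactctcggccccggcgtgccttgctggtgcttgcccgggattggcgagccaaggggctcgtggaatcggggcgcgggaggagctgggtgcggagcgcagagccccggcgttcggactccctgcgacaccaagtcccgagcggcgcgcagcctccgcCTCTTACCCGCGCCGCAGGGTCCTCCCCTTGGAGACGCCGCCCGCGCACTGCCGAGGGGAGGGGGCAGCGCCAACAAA
Col4a2: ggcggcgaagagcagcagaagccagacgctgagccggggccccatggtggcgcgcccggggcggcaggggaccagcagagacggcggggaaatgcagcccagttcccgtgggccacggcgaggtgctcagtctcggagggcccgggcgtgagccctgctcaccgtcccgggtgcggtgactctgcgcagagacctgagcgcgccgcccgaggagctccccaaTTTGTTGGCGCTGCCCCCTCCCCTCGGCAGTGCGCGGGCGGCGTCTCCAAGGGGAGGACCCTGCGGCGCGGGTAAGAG
Whether the authors counted by strand was not given, so fragments from the overlapping first bases could not be told apart between the genes.

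Col4a1 had 14.0, 15.7 and 10.2 FPKM in the KO libraries, against 9.77, 9.87 and 26.3 FPKM in the WT libraries. WT replicate 3 was the highest of all and the other WT libraries the lowest. The difference was −0.06 (log2), with a 95% interval from −0.94 to 0.82 and a limma adjusted p of 0.925. Col4a2 had 12.3, 13.5 and 9.87 FPKM in the KO libraries, against 8.44, 8.59 and 17.6 FPKM in the WT libraries. It followed the pattern of Col4a1, with an interval from −0.55 to 0.75. With both libraries numbered 3 left out, an alternative chosen after seeing the data, Col4a1 differed by 0.55 with a limma adjusted p of 0.00387. That fit rested on replicates 1 and 2 of each genotype, which lay only 0.08 apart and may share a source. The ratio of Col4a1 to Col4a2 was 1.14, 1.17 and 1.04 in the KO libraries, against 1.16, 1.15 and 1.49 in the WT libraries.

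Col4a5, a chain of the more specialized type IV networks, had 2.89, 3.14 and 3.02 FPKM in the KO libraries, against 2.63, 2.78 and 4.16 FPKM in the WT libraries. Col4a6 had 0.702, 0.667 and 1.05 FPKM in KO, against 0.935, 1.09 and 0.743 FPKM in WT, and was not tested. Col15a1, a proteoglycan collagen related to type XVIII, had 2.88, 3.21 and 1.09 FPKM in KO, against 1.84, 1.79 and 1.33 FPKM in WT. In each of these genes the groups overlapped. The basement membrane sum was 39.8, 43.6 and 40.1 FPKM in the KO libraries, against 44.6, 45.3 and 72.3 FPKM in the WT libraries, so every KO library lay below every WT library. Without Col18a1 the sum was 33.5, 36.9 and 26.4 FPKM in KO, against 24, 24.7 and 51 FPKM in WT, and the groups overlapped.

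**Figure D4:**
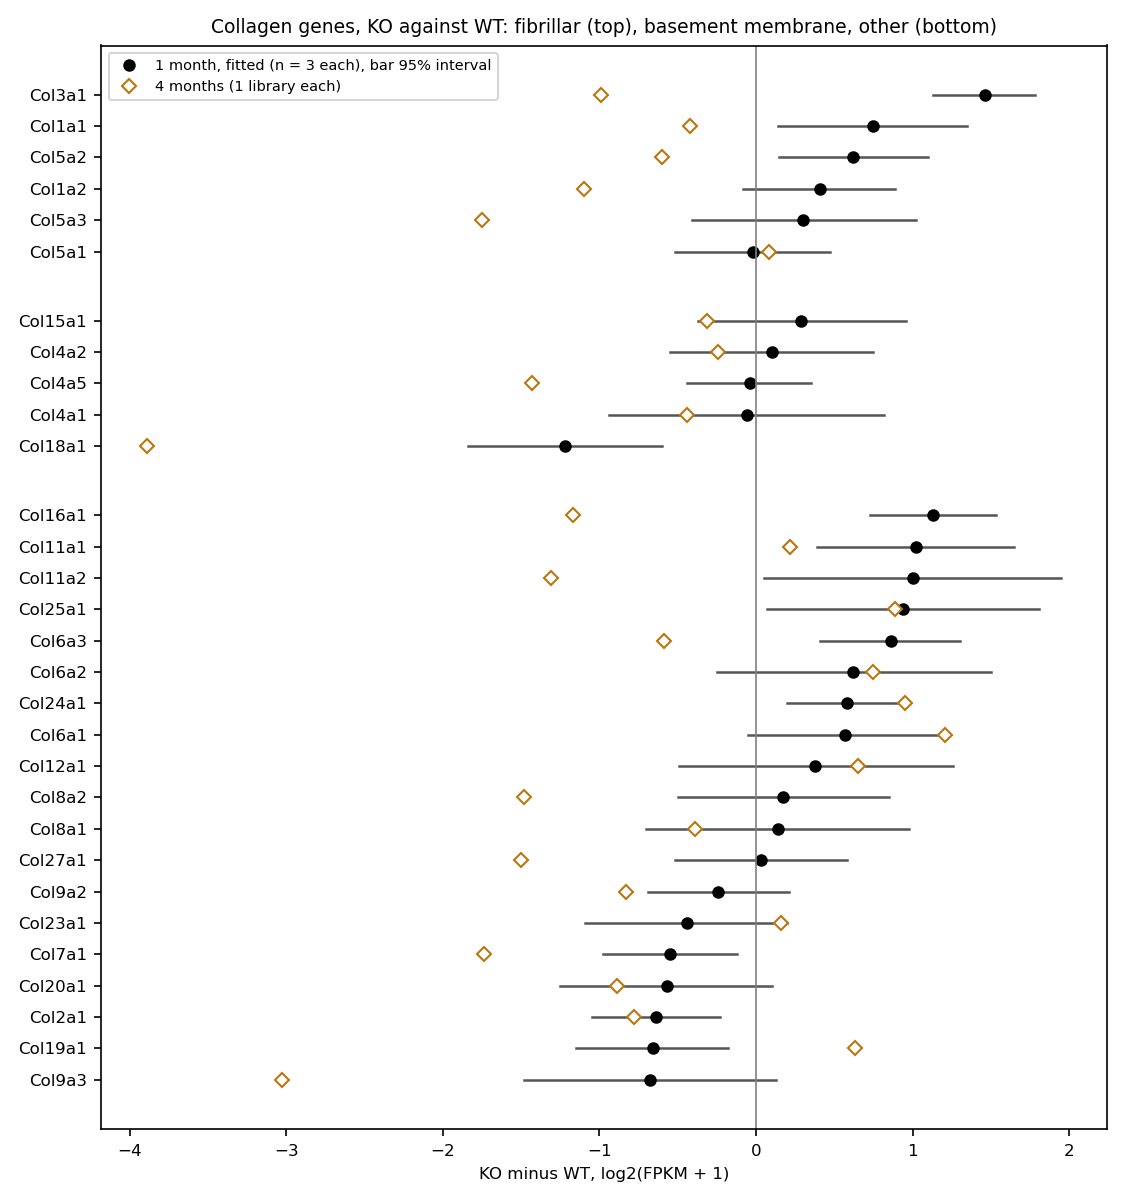
Difference KO minus WT of log2(FPKM + 1) (horizontal axis) for the 30 collagen genes tested, with fibrillar genes at the top, basement membrane genes in the middle and other types at the bottom. Filled circles are the fitted differences at 1 month with their 95% intervals (n = 3 each) and open diamonds the differences at 4 months (1 library each). Col3a1 is at 1.46 at 1 month and −0.99 at 4 months, and Col18a1 at −1.22 and −3.89.

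Among the remaining types, Col16a1 had the smallest adjusted p. It belongs to the collagens that attach to fibrils rather than form them. Col16a1 had 8.01, 8.27 and 7.9 FPKM in the KO libraries, against 2.41, 2.98 and 4.22 FPKM in the WT libraries, or 8.06 ± 0.187 against 3.2 ± 0.926 FPKM (SD, n = 3 each). The groups did not overlap, and the log2 difference was 1.13 (SE 0.17) with a limma adjusted p of 0.0596. Col19a1, of the same attaching family and known from synapse-related work in mouse brain, had 3.76, 3.89 and 6.28 FPKM in the KO libraries, against 7.32, 6.7 and 9.5 FPKM in the WT libraries (−0.66, SE 0.2, adjusted p = 0.0917). All KO libraries lay below all WT libraries. Col12a1 had 2.67, 2.59 and 6.95 FPKM in KO, against 2.05, 1.93 and 4.27 FPKM in WT, and Col20a1 had 0.922, 0.692 and 1.86 FPKM in KO, against 1.7, 1.58 and 3.41 FPKM in WT. Both overlapped between groups, and in both the library numbered 3 was the highest of its group.

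The type IX chains decorate type II fibrils in cartilage. Col9a3 was the most abundant collagen outside the fibrillar and basement membrane classes, at 6.33, 8.1 and 12.8 FPKM in the KO libraries, against 11.0, 11.5 and 24.0 FPKM in the WT libraries (−0.68, SE 0.34, limma adjusted p = 0.214). Col9a2 had 2.32, 3.01 and 3.8 FPKM in KO, against 2.99, 3.72 and 4.57 FPKM in WT. Both genes overlapped between groups. Col9a1 had 0.156, 0.277 and 0.158 FPKM in KO, against 0.454, 0.468 and 2.7 FPKM in WT, and its mean was too low to be tested.

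The fibril-forming chains outside the fibrillar class went in more than one direction. Col11a1, a type XI chain that regulates fibril assembly, had 6.93, 6.32 and 4.68 FPKM in the KO libraries, against 1.75, 1.82 and 4.07 FPKM in the WT libraries (1.02, SE 0.27, limma adjusted p = 0.0756). Its groups did not overlap, although the libraries numbered 3 lay close together. Col11a2 had 10.6, 12.6 and 8.4 FPKM in KO, against 2.88, 3.24 and 10.3 FPKM in WT, and overlapped through WT replicate 3 (1.0, SE 0.4, adjusted p = 0.143). Col24a1 had 1.78, 1.5 and 1.3 FPKM in KO, against 0.669, 0.638 and 0.76 FPKM in WT (0.58, SE 0.16, adjusted p = 0.079). Col2a1, the main fibril of cartilage, had 0.636, 0.56 and 0.622 FPKM in KO, against 1.86, 1.55 and 1.14 FPKM in WT (−0.64, SE 0.17, adjusted p = 0.0785). For both of these genes the groups did not overlap. Col27a1 had 1.98, 2.38 and 4.34 FPKM in KO, against 2.33, 2.92 and 2.84 FPKM in WT.

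Markers of cartilage and bone were low in these libraries. Of 9 markers, 7 had a mean under 1 FPKM, and the sum of all 9 was 11.6, 13.6 and 7.94 FPKM in the KO libraries, against 6.1, 6.52 and 5.04 FPKM in the WT libraries. Acan, which encodes aggrecan and is also made in brain, gave 5.58, 6.17 and 2.83 FPKM of this in KO, against 1.94, 2.11 and 1.55 FPKM in WT. The 14 brainstem and spinal cord markers summed to 230, 232 and 133 FPKM in the KO libraries, against 45.6, 45.8 and 81.4 FPKM in the WT libraries, led by the glycine transporter gene Slc6a5. As for Col11a1, Col11a2 and Col25a1, the libraries numbered 3 of both genotypes lay between the others. At 4 months these brainstem and spinal cord markers summed to 15.1 FPKM in KO, against 103 FPKM in WT. Col11a2 was likewise lower in KO then (3.35 against 9.77 FPKM). Col11a1 (4.05 against 3.34 FPKM) and Col25a1 (9.24 against 4.53 FPKM) were higher in KO. None of these markers was at 0 in all libraries, and their part in the collagen differences was not tested.

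Type VI collagen forms beaded filaments near cell surfaces, from chains encoded by Col6a1, Col6a2 and Col6a3. Col6a3 had 2.49, 3.15 and 2.03 FPKM in the KO libraries, against 0.651, 1.16 and 1.07 FPKM in the WT libraries, without overlap (0.86, SE 0.19, limma adjusted p = 0.067). Col6a1 had 4.79, 4.78 and 9.69 FPKM in KO, against 3.69, 3.16 and 4.58 FPKM in WT (0.57, SE 0.26, adjusted p = 0.182), also without overlap. Col6a2 had 3.13, 4.15 and 9.23 FPKM in KO, against 2.21, 2.34 and 4.55 FPKM in WT, with overlap. In Col6a1 and Col6a2 the library labelled KO replicate 3 was the highest, and in Col6a3 it was the lowest of its group.

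Col25a1 encodes a transmembrane collagen of neurons that was found in amyloid plaques. It had 9.09, 9.26 and 4.07 FPKM in the KO libraries, against 2.28, 2.44 and 5.59 FPKM in the WT libraries (0.94, SE 0.37, limma adjusted p = 0.137). Replicates 1 and 2 stood apart by genotype, and the libraries numbered 3 crossed. Col23a1, also transmembrane, had 1.61, 1.95 and 2.73 FPKM in KO, against 2.34, 2.49 and 5.19 FPKM in WT. Col17a1, the hemidesmosomal collagen of skin, had 0.216, 0.264 and 0.686 FPKM in KO, against 0.868, 0.669 and 1.77 FPKM in WT, and was not tested.

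Col7a1, the anchoring fibril of skin, had 0.52, 0.641 and 1.1 FPKM in the KO libraries, against 1.4, 1.72 and 1.53 FPKM in the WT libraries. The groups did not overlap (−0.55, SE 0.18, limma adjusted p = 0.103). The network-forming type VIII genes showed no such separation: Col8a1 had 1.07, 1.16 and 3.75 FPKM in KO, against 1.16, 1.23 and 2.31 FPKM in WT, and Col8a2 had 1.53, 1.51 and 4.03 FPKM in KO, against 1.56, 1.94 and 1.97 FPKM in WT. Col10a1, a marker of hypertrophic cartilage, did not exceed 1.73 FPKM in any library.

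Without the library labelled KO replicate 3, 12 of 30 collagen genes passed an adjusted p of 0.05, against 34.8% of all genes (14.6% higher and 20.2% lower). Col3a1, Col25a1, Col11a1, Col16a1, Col6a3, Col24a1, Col15a1 and Col1a1 were higher in KO, by 1.56 down to 0.44 on the log2 scale. Col2a1, Col7a1, Col19a1 and Col18a1 were lower, with differences from −0.64 to −1.55. By direction, 26.7% of the collagen genes were called higher and 13.3% lower.

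**Figure D5:**
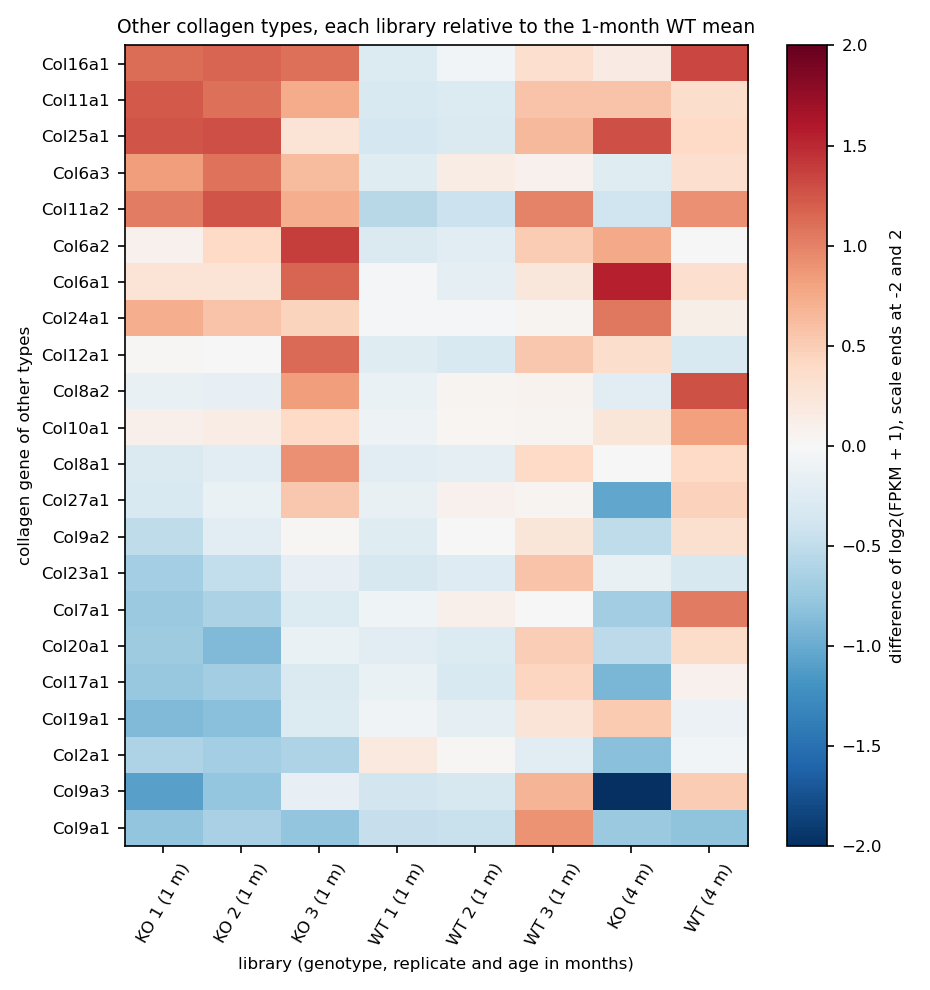
Difference of log2(FPKM + 1) from the mean of the WT libraries at 1 month (color, red higher and blue lower, with colors that end at −2 and 2) for the 22 named collagen genes of other types (rows) in each of the 8 libraries (columns). Col16a1 is red in all 3 KO libraries at 1 month, at 7.9 to 8.27 FPKM, and Col9a3 is darkest blue in KO at 4 months, at 1.72 FPKM, where it passes the end of the color scale.

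At 4 months, with 1 library per genotype and no test, most collagen genes were lower in KO. Of 31 genes averaging 1 FPKM or more over both libraries, 22 were lower in KO, with a median difference of −0.59 (log2), against −0.01 over all genes. By class the median was −0.79 over 6 fibrillar, −0.57 over 6 basement membrane and −0.59 over 19 other genes, and the last of these was −0.11 with no filter on low values. Past a difference of 1, 20.7% of all genes qualified. Among the collagen genes 11 did: Col6a1 was higher in KO, and Col1a2, Col4a5, Col5a3, Col7a1, Col8a2, Col9a3, Col11a2, Col16a1, Col18a1 and Col27a1 were lower, against 9.57% of all genes higher and 11.2% lower. Col18a1 had 1.39 FPKM in the KO library, against 34.3 FPKM in the WT library, a 24.7-fold lower level. Col9a3 had 1.72 FPKM in KO, against 21.1 FPKM in WT. These were the widest gaps among the collagen genes compared, at −3.89 and −3.03 on the log2 scale.

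The fibrillar genes were mostly lower in the KO library at 4 months. Col1a1 had 5.83 FPKM in KO, against 8.17 FPKM in WT, and Col1a2 had 7.49 FPKM in KO, against 17.2 FPKM in WT. Col3a1 had 1.23 FPKM in KO, against 3.42 FPKM in WT. Col5a2 had 1.53 FPKM in KO, against 2.84 FPKM in WT, and Col5a3 had 0.423 FPKM in KO, against 3.78 FPKM in WT. Col5a1 was the exception, at 8.34 FPKM in KO, against 7.82 FPKM in WT. The fibrillar sum was 24.9 FPKM in KO, against 43.3 FPKM in WT, and the sum of the meningeal markers was 130 FPKM in KO, against 133 FPKM in WT. Without Mgp, which was higher in KO, the meningeal sum was 87.1 FPKM in KO, against 110 FPKM in WT, and 15 of the 20 markers were lower in KO.

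The basement membrane sum was 26.7 FPKM in the KO library at 4 months, against 71.9 FPKM in the WT library, and without Col18a1 it was 25.4 FPKM in KO, against 37.6 FPKM in WT. Col4a1 had 10.6 FPKM in KO, against 14.7 FPKM in WT, and Col4a2 had 11.8 FPKM in KO, against 14.2 FPKM in WT. Col4a5 had 0.993 FPKM in KO, against 4.35 FPKM in WT. Col4a6 and Col15a1 were also lower, at 0.526 and 1.26 FPKM in KO, against 1.48 and 1.81 FPKM in WT. The endothelial markers summed to 126 FPKM in KO, against 172 FPKM in WT. Most of that gap came from Slc2a1, at 27.3 FPKM in KO, against 68.9 FPKM in WT. The median difference over the 14 endothelial markers was 0 (log2). The choroid plexus markers summed to 146 FPKM in KO, against 469 FPKM in WT, and the granule neuron markers to 83.1 FPKM in KO, against 1130 FPKM in WT. Purkinje cell markers summed to 496 FPKM in KO, against 1460 FPKM in WT. Brainstem and spinal cord markers summed to 15.1 FPKM in KO, against 103 FPKM in WT. Whether these cells contributed to the collagen levels was not tested.

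Of the other types, Col16a1 had 3.66 FPKM in KO at 4 months, against 9.5 FPKM in WT, and Col11a2 had 3.35 FPKM in KO, against 9.77 FPKM in WT. Col7a1 had 0.576 FPKM in KO, against 4.25 FPKM in WT, Col8a2 had 1.44 FPKM in KO, against 5.81 FPKM in WT, and Col27a1 had 0.798 FPKM in KO, against 4.07 FPKM in WT. Higher levels in KO were seen for Col6a1, at 13.0 FPKM in KO against 5.03 FPKM in WT, and Col6a2, at 5.58 FPKM in KO against 2.91 FPKM in WT. Col25a1, Col19a1 and Col24a1 were likewise higher, at 9.24, 11.6 and 2.52 FPKM in KO, against 4.53, 7.11 and 0.825 FPKM in WT. Col11a1 had 4.05 FPKM in KO, against 3.34 FPKM in WT.

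Age was compared in a fit with genotype as a further term, 4 months against 1 month, over 14918 genes. Col5a1 was the one collagen gene of 30 past an adjusted p of 0.05, and 3.24% of all genes passed (1.13% higher and 2.11% lower), so this share lay near the background. Col5a1 had 8.34 FPKM in KO and 7.82 FPKM in WT at 4 months, against 2.45 to 4.28 FPKM in KO and 2.5 to 3.63 FPKM in WT at 1 month. Both libraries at 4 months lay above all 6 at 1 month, and Col5a1 rose by 1.17 on the log2 scale (SE 0.21, limma adjusted p = 0.0377). The call was lost in 8 of 16 alternatives, among them leaving out KO replicate 1 or 2, WT replicate 1, 2 or 3, or the KO library of 4 months, with adjusted p between 0.0268 and 0.106 over all of them. Col3a1 had a difference of −1.83 (SE 0.46, limma adjusted p = 0.0661), with 1.23 FPKM in KO and 3.42 FPKM in WT at 4 months, below every library at 1 month. Its means at 1 month were 17.6 FPKM in KO and 5.76 FPKM in WT. The fit gives both genotypes the same age difference, so −1.83 describes neither genotype alone. Col6a1 differed by 0.66 (SE 0.28, adjusted p = 0.193).

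The genotype difference at 4 months was set against that at 1 month in a fit of all 4 groups, where the lone libraries at 4 months were assumed to vary like the others. Col3a1, Col16a1, Col18a1 and Col4a5 passed an adjusted p of 0.05, all with a difference that was more negative at 4 months. They made 4 of 30 collagen genes, or 13.3%, against 12.8% of all genes, which is near the background, while 5.81% of all genes passed in that direction and 6.98% in the other. The genotype difference of Col3a1 shifted by −2.44 on the log2 scale (SE 0.28, limma adjusted p = 0.00538), that of Col16a1 by −2.30 (SE 0.34, adjusted p = 0.0108), that of Col18a1 by −2.67 (SE 0.53, adjusted p = 0.0249) and that of Col4a5 by −1.38 (SE 0.33, adjusted p = 0.0415). For Col3a1 and Col16a1 the KO libraries stood above WT at 1 month and below it at 4 months. Col18a1 stood below WT at both ages. Without WT replicate 1 or 2 the call of Col18a1 was lost, with an adjusted p of 0.0647 or 0.0643, and that of Col4a5 was lost without replicate 1 or 2 of either genotype, with an adjusted p between 0.0838 and 0.0956.

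Genes that act on collagens after transcription, and those of TGF-beta signaling, were read from lists of the pathway. None of the listed genes passed an adjusted p of 0.05 at 1 month. Without the library labelled KO replicate 3, calls at 0.05 were made in every list except the receptors. They were 5 higher and 3 lower for hydroxylation and folding, 4 and 4 for export and processing, 3 and 0 for fibril organization, 5 and 1 for proteases and inhibitors, 2 and 5 for TGF-beta, 2 and 1 for basement membrane partners and 1 and 0 for cross-linking. In that fit 14.6% of all genes were called higher and 20.2% lower. The lists held 4 to 18 genes tested at 1 month, and their counts were not tested against these shares. At an adjusted p of 10%, 4 of 18 genes for hydroxylation, glycosylation and folding were higher in KO and none lower, with a list median of 0.15 (log2). These were P4ha3 and P4hb, subunits of prolyl 4-hydroxylase, Plod1, a lysyl hydroxylase, and Leprel1, a prolyl 3-hydroxylase. P4ha3 had 1.86, 2.01 and 1.6 FPKM in the KO libraries, against 0.811, 0.456 and 0.603 FPKM in the WT libraries. Its groups were well apart at a low level. Of 10 genes for export and processing, 2 were higher (Pcolce2, an enhancer of C-propeptide cleavage, and Adamts2, an N-propeptidase) and 2 lower (Tll1, a C-propeptidase, and Adamts3), with a median of 0.03. Pcolce2 had 10.7, 10.1 and 5.76 FPKM in KO, against 3.72, 3.14 and 3.04 FPKM in WT.

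Among 11 proteoglycans and glycoproteins that organize fibrils, 4 were higher at an adjusted p of 10% and none lower, with a median of 0.54. Decorin, encoded by Dcn, had 29.1, 27.8 and 16.1 FPKM in the KO libraries, against 11.9, 11.7 and 6.87 FPKM in the WT libraries, and Bgn, Ogn and Tnxb were the others. Dcn, Bgn and Ogn were also among the meningeal markers counted above, so the counts of these lists are not separate. All 4 higher genes separated the groups without overlap, as did 15.2% of all genes in this direction. They were picked by a small p in these same libraries, so the separation adds no support. Of 4 cross-linking enzymes tested, Pxdn, the peroxidase that joins type IV collagen, was higher, at 6.1, 6.25 and 4.23 FPKM in KO, against 3.02, 2.85 and 3.72 FPKM in WT. At 4 months Pxdn had 22.5 FPKM in KO, against 3.2 FPKM in WT. The median difference at 4 months over the 4 tested cross-linking genes was nevertheless −0.15 (log2). Every other pathway list also had a negative median then, down to −0.49 for the receptors. Of 12 basement membrane partners of type IV collagen, Smoc1 and Agrn were higher, with a list median of 0.07.

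Of 10 collagen-degrading proteases and their inhibitors, 5 were higher and 1 lower at an adjusted p of 10%, with a median of 0.4. The inhibitor gene Timp2 had 54.1, 51.4 and 36.7 FPKM in the KO libraries, against 20.8, 20.7 and 22.1 FPKM in the WT libraries, and Timp4 had 38.6, 38.9 and 57.4 FPKM in KO, against 77.3, 77.1 and 88.8 FPKM in WT. The genes for these inhibitors thus stood on opposite sides of WT, without overlap in either case. Mmp2, a gelatinase, and Timp3 were among the higher ones. Of 7 collagen receptors tested none passed in either direction, with a median of 0.27, and 2 of them were higher in KO without overlap, against 15.2% of all genes. Of 15 genes of TGF-beta signaling, which drives collagen transcription in fibroblasts, Tgfbr2 and Tgfb3 were higher and Ltbp2 was lower, with a median of 0.08. Ltbp2, a matrix protein of the latent TGF-beta binding family, had 0.819, 0.728 and 7.5 FPKM in KO, against 13.8, 13.8 and 13.6 FPKM in WT. With all 6 libraries of 1 month and an adjusted p of 10%, the share of all genes that passed was 8.59% for higher and 9.77% for lower.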

How the data were processed

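FPKM values per gene were deposited by the authors as 1 table of cerebellar total RNA with 8 library columns, made with TopHat2 2.1.0, Bowtie 1.1.2 and Cuffdiff on the mouse build mm9, per the submitters' processing notes; whether strand was used was not given in the sources used here. Of 37 samples in the series, the other 29 were not analysed here, and 1 row of the table that named no gene was removed. Columns were matched to samples by title. FPKM keep no read totals, so absolute depth is unknown and no counting interval is given.

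In limma 3.58.1 (R 4.3.3), log2(FPKM + 1) of genes averaging 1 FPKM or more over the libraries in the fit was tested with a mean-variance trend and Benjamini-Hochberg adjustment over all genes, after the code had been tested on simulated data. The KO and WT libraries of 1 month were compared with each other, age was compared over all 8 libraries with genotype as a term, and the difference between the genotype effects was taken from a fit of 4 groups. A gene was called at an adjusted p under 0.05, and counted again under 10%. At 4 months a difference over 1 (log2) was counted.

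The members and the pathway and marker lists were chosen with earlier results of these data known. Every collagen gene with a mean of at least 1 FPKM in any group or over all libraries was named, with up to 4 genes of each pathway list by smallest p, up to 3 markers of each list by highest mean, and Mll2. A marker that is not reported here was left out of the microglial list. Genes cited only to complete a count were chosen after their values were seen. Promoter windows came from RefSeq (GRCm38.p6), from 250 bases before to 50 after a start, for 34 of 42 members by symbol. Alternatives changed the pseudocount, filter, scaling, trend, library weights, replicate block and the libraries included.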

Additional observations from a re-analysis of the deposited data

Results flagged for a closer look

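For 4 collagen genes the genotype difference itself differed between the ages by the interaction term in limma, with 1 library per genotype at 4 months. Col3a1 had an interaction of −2.44 on the log2 scale (KO minus WT at 4 months, minus the same at 1 month; adjusted p = 0.00538). It was negative and past the threshold in all 12 alternatives, between −2.99 and −2.35. Col16a1 had −2.30 (adjusted p = 0.0108), likewise past the threshold in all 12, between −2.69 and −2.16. Col18a1 had −2.67 (adjusted p = 0.0249), past the threshold in 9 of 12 alternatives, and Col4a5 had −1.38 (adjusted p = 0.0415), past it in 6 of 11. Each of these rests on the single KO and the single WT library of 4 months, which no alternative could leave out. The share of collagen genes past the threshold, 13.3%, lay near the 12.8% of all genes, of which 5.81% passed in the negative direction.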

How the results depend on the processing

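At 1 month, the count of collagen genes past an adjusted p of 0.05 (1 of 30) was 0 with no filter on low values (2 of all genes called), without the mean-variance trend (4 of all genes), with all 8 libraries and an age term (0 of all genes) and with replicates 1 and 2 of a genotype averaged (1 of all genes). It was 21 with library weights (8193 of all genes) and 21 with both libraries numbered 3 left out (7277 of all genes). A shift of the libraries to 1 median gave 18 calls among all genes. The limma fit of the 6 libraries gave 13 collagen genes at an unadjusted p under 0.05. Leaving out 1 library at a time gave 0 to 12 collagen genes and 1 to 5140 of all genes at 0.05, and 0 to 14 collagen genes at 0.10. The count at 0.10 (9 collagen genes) was 4 with a filter of 5 FPKM, 4 with all 8 libraries, 0 with replicates 1 and 2 averaged, and 23 both with library weights and without the libraries numbered 3. In these alternatives all genes were counted at 0.05 only. Col3a1 was higher in KO in all 17 alternatives, between 0.84 and 1.64 (log2), and past the threshold in 8; its adjusted p was 0.0568 without the trend, 0.0712 with no filter and 0.215 with all 8 libraries.

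The deviations of same-numbered libraries correlated by 0.17, 0.03 and 0.04 over genes. With 3 libraries per genotype, these values cannot tell whether same-numbered libraries shared a batch. The libraries numbered 3 had the lowest relative depths, at 0.77 in KO and 0.73 in WT. With a replicate block, 0 collagen genes passed 0.05 and 14 passed 0.10, and 4 of all genes passed 0.05. All genes were not counted at 0.10 in that fit, so the 14 have no background share beside them.

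The fibrillar median at 1 month was 0.75 with the 5 FPKM filter, 0.17 with all 8 libraries and 0.32 to 0.67 with 1 library left out, and that of the other types was 0.76 with the 5 FPKM filter. The basement membrane median was 0.47 with library weights and 0.52 without the libraries numbered 3. At 4 months a pseudocount of 0.1 gave 3 higher collagen genes and medians of −1.02 (fibrillar) and −1.0 (other). No filter gave −0.11 (other). The 5 FPKM filter gave 5 lower genes and −0.42 (fibrillar), and quantile normalization gave 2 higher genes.

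For age, the count of collagen genes (1) was 0 with no filter (98 of all genes) and with the 5 FPKM filter, under which Col5a1 was not tested, 4 in WT libraries alone (1749 of all genes) and 3 in KO libraries alone (1155). It was 0 to 9 with 1 library left out (1 to 2376 of all genes). All genes called were 315 after the median shift and 295 without the trend. For the interaction, the count at 0.05 (4) was 2 with no filter and 2 to 12 with 1 library left out (662 to 3747 of all genes), and at 0.10 (12) it was 7 with the 5 FPKM filter and 4 to 17 with 1 library left out. All genes were not counted at 0.10 for the interaction, so its counts at 0.10 have no background share beside them.

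The sign at 1 month turned, past an adjusted p of 0.05 for Col4a1 alone, without the libraries numbered 3, for Col4a1 (0.01 under either scaling, −0.29 to 0.39 with 1 library left out, 0.47 with weights, 0.55 without the libraries numbered 3, adjusted p = 0.00387), Col4a2 (−0.06 to 0.43 with 1 left out, −0.12 averaged), Col4a5 (−0.14 to 0.12 with 1 left out, 0.03 median shift, 0.09 weights, 0.12 without the libraries numbered 3), Col5a1 (−0.22 to 0.08 with 1 left out, 0.05 median shift, 0.13 averaged, 0.00 with all 8), Col5a3 (−0.21 with all 8 libraries), Col8a1 (−0.25 to 0.35 with 1 left out, −0.05 with weights and without the libraries numbered 3), Col8a2 (−0.16 to 0.34 with 1 left out, −0.12 with weights and without the libraries numbered 3, −0.24 with all 8) and Col27a1 (−0.22 to 0.20 with 1 left out, −0.18 weights, −0.35 with all 8, −0.19 without the libraries numbered 3). The causes of these shifts were not tested. Precision is limited by 3 libraries per group and by unknown depth.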

Other observations

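Emid2, the older symbol under which RefSeq lists Col26a1, lies outside the rule on symbols. It had 1.68, 1.17 and 1.79 FPKM in the KO libraries, against 0.83, 0.787 and 0.49 FPKM in the WT libraries at 1 month, without overlap (log2 difference 0.58, SE 0.18, limma adjusted p = 0.0942). At 4 months it had 3.51 FPKM in KO, against 1.64 FPKM in WT. Gm7455, which RefSeq gives as a synonym of Col6a5, had 1.83, 2.07 and 0.0501 FPKM in the KO libraries, against 0.0674, 0.0596 and 0.0264 FPKM in the WT libraries, so that only KO replicates 1 and 2 exceeded 1 FPKM. Both genes were looked up after the data were seen.

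Some other cell type lists varied over the libraries as follows at 1 month. Oligodendrocyte markers, led by Mbp, summed to 7110, 6660 and 4190 FPKM in KO, against 3200, 3100 and 6000 FPKM in WT. Astrocyte markers summed to 1000, 996 and 1150 FPKM in KO, against 973, 962 and 949 FPKM in WT. The 3 red blood cell markers found, led by Hba-a2, summed to 242, 224 and 1130 FPKM in KO, against 94.2, 90.4 and 524 FPKM in WT, highest in the libraries numbered 3. Schwann cell markers summed to 3.61 to 5.23 FPKM in KO, against 4.35 to 5.76 FPKM in WT, and skeletal muscle markers to 1.7 to 1.84 FPKM in KO, against 1.91 to 3.25 FPKM in WT.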
